A study of Mus musculus with 4 samples.

Results

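Genes that copy DNA and genes that divide the cell were followed through 4 RNA-seq libraries of mouse colon. The set is a list of gene names, drawn up with earlier results of these data known: 20 genes of DNA replication and 20 of mitosis, 40 of the 44788 gene rows in the deposited count table, and all 40 were found. All mice were C57BL/6, the tissue was colon, and 1 library stood for each group, so no group has a replicate. The groups were untreated wild-type (WT) mice (labelled day 0), untreated mice labelled Card9-/- (day 0), WT mice given azoxymethane and dextran sulfate sodium (AOM/DSS, day 100), and mice labelled Card9-/- given AOM/DSS (day 100). AOM is a mutagen and DSS an irritant of the colon, and together they serve as a model of colitis-associated cancer. The treated mice received 10 mg/kg AOM once by intraperitoneal injection, and from 5 days later 2% DSS in the drinking water for 7 days, in 3 cycles. Treatment and day of collection coincide in this design and cannot be told apart. The sources used here give neither the number of mice behind each library, nor their age, nor the Card9 allele.

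A dividing cell first licenses its origins by loading the Mcm2-7 ring, then fires them, copies its DNA with polymerases held by the Pcna clamp, and later condenses and separates its chromosomes under Cdk1, the Aurora kinases and the spindle checkpoint. Replication genes are typically transcribed at the entry into S phase under E2F factors, and mitotic genes later, in G2, under the MuvB complex with B-Myb and Foxm1, which binds the CHR element of their promoters. In healthy colon such cells sit in the lower crypt, and differentiated colonocytes and goblet cells above them do not divide.

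Printed here are 5 promoters, as examples of the letters upstream of the genes. From each group they include the 2 members with the highest fold between the AOM/DSS libraries whose promoter held the group's motif. These motifs were E2F-type letters for replication, and CHR-type letters together with a CCAAT box for mitosis. The matches in these promoters therefore follow from the choice and do not show how common a motif was in its group. Each is the 250 bases before the annotated start, 5′ to 3′ on the strand of the gene, from RefSeq on GRCm38.p6, with the motif matches in capitals. That of Mcm5 (a subunit of the helicase ring) lies at chr8:75109259-75109508, plus strand, and that of Uhrf1 (which brings the maintenance methyltransferase to newly copied DNA) at chr17:56303087-56303336, plus strand, upstream of the first of 2 annotated starts. In both of these replication promoters the capitals mark only the E2F-type letters, which in Mcm5 are 2 overlapping matches.
Mcm5: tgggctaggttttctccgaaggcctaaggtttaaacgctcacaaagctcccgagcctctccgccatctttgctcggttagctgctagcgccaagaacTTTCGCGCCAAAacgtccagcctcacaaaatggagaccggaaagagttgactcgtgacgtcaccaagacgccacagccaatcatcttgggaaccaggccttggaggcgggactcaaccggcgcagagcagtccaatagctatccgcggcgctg
Uhrf1: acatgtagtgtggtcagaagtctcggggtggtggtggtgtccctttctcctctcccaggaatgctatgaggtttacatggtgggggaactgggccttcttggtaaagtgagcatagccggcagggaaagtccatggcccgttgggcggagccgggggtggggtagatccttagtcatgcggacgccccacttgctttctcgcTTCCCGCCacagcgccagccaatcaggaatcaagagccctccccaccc
The promoter of Top2a (topoisomerase II alpha, which untangles sister chromosomes) lies at chr11:99024190-99024439, minus strand, and that of Bub1 (a kinase of the spindle checkpoint) at chr2:127831860-127832109, minus strand. In these mitotic promoters the capitals mark CHR-type letters and CCAAT boxes on either strand. The CHR-type match of Bub1 lies in the 50 bases after its start, which are not printed.
Top2a: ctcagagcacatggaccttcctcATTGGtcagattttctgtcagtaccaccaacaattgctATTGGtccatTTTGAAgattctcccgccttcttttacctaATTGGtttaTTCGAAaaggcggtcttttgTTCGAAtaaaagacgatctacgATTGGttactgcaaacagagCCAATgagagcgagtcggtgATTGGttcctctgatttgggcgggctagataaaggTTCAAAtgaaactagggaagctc
Bub1: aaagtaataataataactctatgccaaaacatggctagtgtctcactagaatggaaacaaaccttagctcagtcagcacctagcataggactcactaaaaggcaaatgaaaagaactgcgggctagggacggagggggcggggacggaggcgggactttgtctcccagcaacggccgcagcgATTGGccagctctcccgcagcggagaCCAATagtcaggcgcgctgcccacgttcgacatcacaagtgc
The promoter of Cdk1, the kinase that drives entry into mitosis, lies at chr10:69352913-69353162, minus strand. It was added after the matches were seen, because it was the only mitosis member with E2F-type letters, and its capitals mark these, the CHR-type letters and the CCAAT boxes.
Cdk1: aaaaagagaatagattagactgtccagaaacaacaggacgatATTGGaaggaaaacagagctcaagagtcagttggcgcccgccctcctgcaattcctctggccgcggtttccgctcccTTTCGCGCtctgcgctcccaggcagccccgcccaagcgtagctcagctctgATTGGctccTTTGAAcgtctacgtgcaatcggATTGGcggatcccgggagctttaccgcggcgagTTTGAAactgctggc

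RefSeq windows of 300 bases (250 before to 50 after the start) were at hand for 33 of the 40 members, 17 of replication and 16 of mitosis. E2F-type letters (TTTCCCGC, TTTCGCGC, TTTGCCGC, TTTGGCGC or TTCCCGCC, on either strand, where TTTCCCGC and TTCCCGCC can overlap) were present for 11 of the 17 replication members and 1 of the 16 mitosis members, against 3.89% of all 32851 windows and 4.46% of the 27025 genes that have one. The 11 were Cdc6, Cdt1, Mcm3, Mcm5, Mcm6, Mcm7, Pola1, Prim1, Rfc4, Rrm1 and Uhrf1. CHR-type letters (TTTGAA or TTCGAA, on either strand) were present for 12 of the 16 mitosis members and 2 of the 17 replication members, Mcm2 and Mcm7, against 19.2% of windows and 21.7% of genes. All 12 mitosis members with CHR-type letters also held a CCAAT box (CCAAT or its reverse, ATTGG), a combination present in 7.52% of windows and 8.61% of genes. A CCAAT box alone was common to both groups, at 11 of 17 and 14 of 16, against 37.4% of windows and 41.1% of genes. A match is a run of letters and no measured binding.

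The libraries held 23022885 to 27706567 counts. Card9 itself had 44 and 116 counts in the untreated and the AOM/DSS WT library, and 69 and 245 in the corresponding libraries labelled Card9-/-, so its counts were not lower under the label, and those libraries are named here by their label only. The AOM/DSS library labelled Card9-/- stood apart from the rest. Its log2 CPM correlated at 0.798 to 0.829 with the other libraries over 15173 genes, against 0.933 to 0.947 among the other three. Its share of counts on Rn18s-rs5, a ribosomal RNA sequence, was also the lowest, 2.86% where the others had 5.2% to 7.11%, and the part of this in the members' levels was not tested. Every result below that names a difference to this library rests on it. Levels are CPM (counts per library total, brought to a common scale by the TMM method of edgeR), always listed in the order untreated WT, untreated labelled Card9-/-, AOM/DSS WT and AOM/DSS labelled Card9-/-. Folds are ratios of CPM, and their 95% counting intervals are exact (Clopper-Pearson) and cover counting error only, not the spread between mice.

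All 40 members had their highest level in the AOM/DSS library labelled Card9-/-. Untreated WT was second for 37 of them, including all 20 mitosis members, and AOM/DSS WT was lowest for 26 (15 of replication, 11 of mitosis). Summed over the 20 replication members, the levels were 749, 572, 440.0 and 1448 CPM, and over the 20 mitosis members 1021, 672, 645 and 1829 CPM. In both groups AOM/DSS WT therefore stood at the bottom and AOM/DSS labelled Card9-/- at the top, with the untreated libraries between them. In bulk colon, fewer dividing cells and less RNA per dividing cell cannot be told apart.

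**Figure D1:**
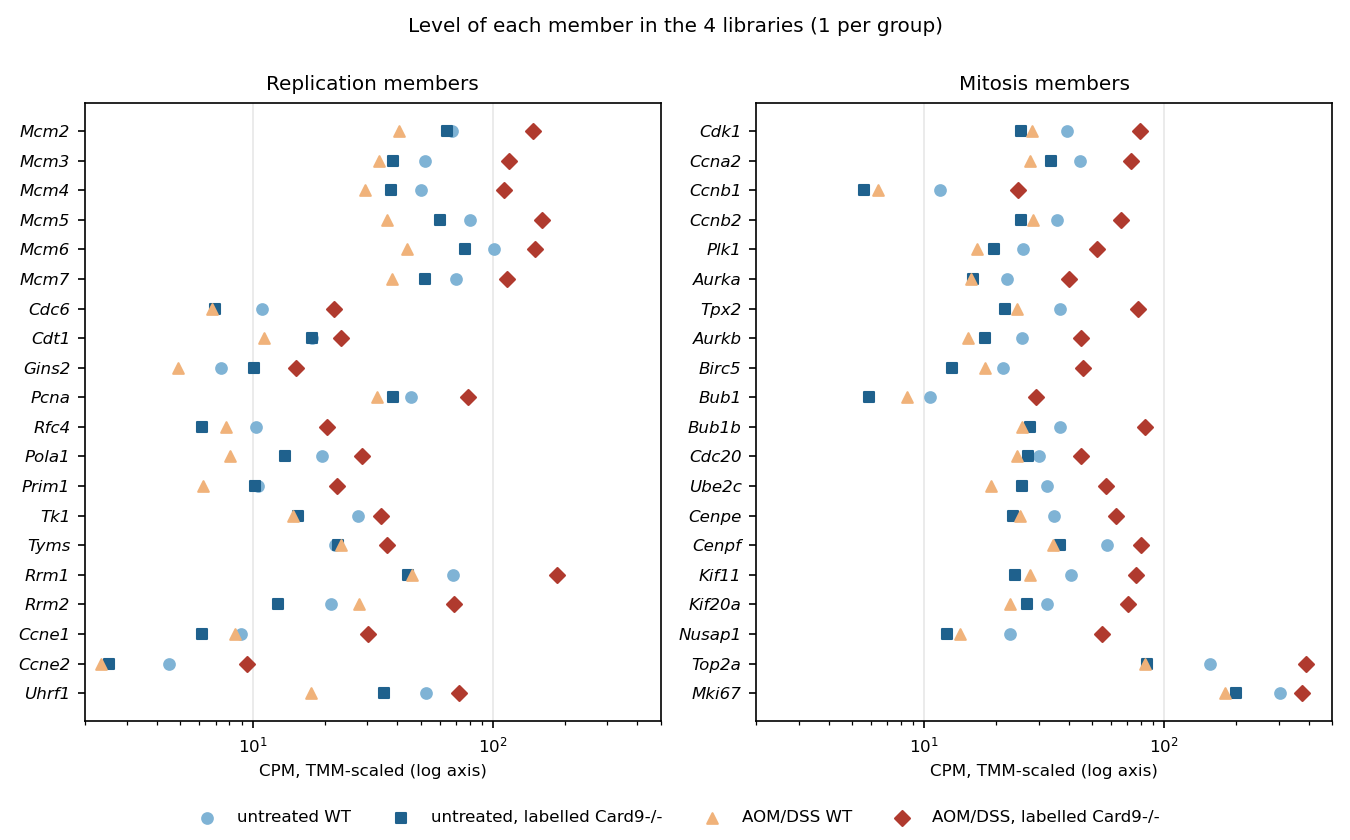
Levels of the 40 members in the 4 libraries, as TMM-scaled CPM on a logarithmic axis, with replication members on the left, mitosis members on the right and 1 point per gene and library, without replicates. For each gene the point of the AOM/DSS library labelled Card9-/- lies highest, and most genes have AOM/DSS WT or the untreated library labelled Card9-/- at the bottom.

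The 6 subunits of the helicase ring shared one order of the libraries: AOM/DSS labelled Card9-/- highest, then untreated WT, untreated labelled Card9-/- and AOM/DSS WT. Mcm2, a subunit of the ring that unwinds DNA, stood at 67.5, 64.7, 40.7 and 147 CPM. Its level did not differ beyond counting error between the untreated libraries, was lowest in AOM/DSS WT, and was 3.62-fold higher (95% counting interval 3.365 to 3.89) in AOM/DSS labelled Card9-/- than there. Mcm6, the replication member with the most counts over the 4 libraries together, read 101.5, 76.55, 43.8 and 149.9 CPM. Mcm5 had 80.1, 59.98, 36.4 and 159.8 CPM, a span that made it the replication member with the highest fold between the AOM/DSS libraries, 4.39-fold higher (95% counting interval 4.07 to 4.735). Mcm3 had 52.1, 38.4, 33.6 and 117 CPM, and Mcm4 had 50.3, 37.7, 29.5 and 111 CPM. Mcm7 had 70.1, 52.2, 38.2 and 114.5 CPM. The count of Mcm7 is uncertain, since the pseudogene Gm5487 matched 72.8% of its transcript at 97.7% identity and had 20.8, 18.2, 9.996 and 27.7 CPM.

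The loaders and the firing factor had fewer counts than the ring. Cdc6, which loads the ring onto origins, stood at 10.95, 6.95, 6.79 and 21.75 CPM. The pseudogene Gm9430, 95.2% identical over 59.5% of the Cdc6 transcript, had no count row under that name. Cdt1, the partner of Cdc6, had 17.65, 17.6, 11.1 and 23.3 CPM, equal within counting error in the untreated libraries. Its difference in the pair labelled Card9-/- was the smallest of any replication member, 1.32-fold higher (95% counting interval 1.17 to 1.501). Gins2, part of the GINS complex that turns the ring into an active helicase, had 7.38, 10.1, 4.91 and 15.2 CPM and was the one member whose counting interval placed the untreated library labelled Card9-/- above untreated WT, 1.37-fold higher (95% counting interval 1.12 to 1.68). Exons of Gse1 on the opposite strand cover 70.7% of the Gins2 transcript, and Gse1 read 118, 120.5, 107 and 78.6 CPM. Without knowledge of strand in the counting, these reads cannot be told apart.

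Among the genes that work at the fork, Pcna, the sliding clamp, stood at 45.8, 38.6, 32.8 and 78.5 CPM, and its level was 2.39-fold higher (95% counting interval 2.202 to 2.61) in AOM/DSS labelled Card9-/- than in AOM/DSS WT. Its pseudogene Pcna-ps2, 99.2% identical over 51.4% of the transcript, carried about as many counts, 41.9, 29.04, 33.6 and 73.45 CPM, with the same library highest and the untreated library labelled Card9-/- lowest. Pola1, the catalytic subunit of the priming polymerase, had 19.4, 13.6, 8.02 and 28.4 CPM and was 2.42-fold lower (95% counting interval 2.03 to 2.89) in AOM/DSS WT than in untreated WT. Prim1, the primase, read 10.5, 10.2, 6.24 and 22.5 CPM, and Rfc4, a subunit of the clamp loader, 10.3, 6.12, 7.75 and 20.45 CPM. Exons of Eif4a2 on the opposite strand cover 13.4% of the Rfc4 transcript, and Eif4a2 read 192.8, 179.7, 177.6 and 130 CPM.

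Nucleotide synthesis genes included both members that were not lower in AOM/DSS WT than in untreated WT, Rrm2 and Tyms. Rrm1, the large subunit of ribonucleotide reductase, stood at 68.4, 44.1, 46.1 and 186 CPM. Rrm2, its small subunit and the one made in S phase, stood at 21.1, 12.8, 27.65 and 69.2 CPM. The pseudogene Gm48455 matched 19.1% of the Rrm2 transcript at 95.5% identity and had no count row under that name. Rrm2 was the only member whose counting interval placed AOM/DSS WT above untreated WT, 1.31-fold higher (95% counting interval 1.16 to 1.475), and it had the highest fold of all members in the pair labelled Card9-/-, 5.405-fold higher (95% counting interval 4.77 to 6.145). Tyms, thymidylate synthase, had 21.9, 22.7, 23.4 and 36.4 CPM, nearly level across the first 3 libraries, and the lowest fold of the replication members between the AOM/DSS libraries, 1.555-fold higher (95% counting interval 1.4 to 1.73). Tk1, thymidine kinase, had 27.6, 15.4, 14.7 and 34.4 CPM and the lowest ratio of the replication members in the untreated pair, 1.79-fold lower (95% counting interval 1.57 to 2.04).

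Of the genes of S phase entry and chromatin, Uhrf1 stood at 52.5, 35.3, 17.5 and 72.35 CPM. It was the member furthest below untreated WT in AOM/DSS WT, 2.999-fold lower (95% counting interval 2.67 to 3.37). Its pseudogene Gm5648, 98.3% identical over 44.3% of the transcript, showed the same order at 14.7, 9.99, 4.998 and 21.05 CPM. Ccne1 and Ccne2 are the E cyclins that activate Cdk2 at the start of S phase. Ccne1 had 8.97, 6.12, 8.44 and 30.2 CPM, and its interval in the WT pair spanned no difference. Ccne2 had 4.48, 2.53, 2.34 and 9.501 CPM, the lowest of all members on a per-length scale, at 1.49, 0.842, 0.778 and 3.16 CPM per kb of transcript. Exons of Ints8 on the opposite strand cover 20.3% of the Ccne2 transcript, and Ints8 read 29.0, 25.45, 30.2 and 39.65 CPM.

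Among the mitosis members, Cdk1 stood at 39.4, 25.2, 28.2 and 78.9 CPM and was 2.8-fold higher (95% counting interval 2.56 to 3.06) in AOM/DSS labelled Card9-/- than in AOM/DSS WT. Of its cyclins, Ccna2, which acts from S phase into mitosis, had 44.7, 33.8, 27.7 and 72.8 CPM, and Ccnb2 had 35.8, 25.2, 28.4 and 66.2 CPM. Exons of Exosc9 on the opposite strand cover 17.2% of the Ccna2 transcript, and Exosc9 read 19.9, 14.2, 34.7 and 38.45 CPM. Ccnb1, the main mitotic cyclin, stood at 11.6, 5.62, 6.42 and 24.5 CPM and was the mitosis member furthest below WT in the untreated library labelled Card9-/-, 2.07-fold lower (95% counting interval 1.67 to 2.58). The pseudogene Gm12856, 98.1% identical over 51.9% of the Ccnb1 transcript, had 2.82, 1.93, 2.29 and 8.14 CPM. A closer copy, Ccnb1-ps, 99.2% identical over 51.7% of the transcript, had no count row under that name.

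The mitotic kinases and their partners lay on the same side in each pair of libraries. Plk1, the polo kinase, stood at 25.9, 19.5, 16.55 and 52.65 CPM. Aurka, the kinase of the spindle poles, had 22.1, 15.9, 15.6 and 40.1 CPM, and Tpx2, which activates it on the spindle, 36.98, 21.7, 24.35 and 77.7 CPM. Aurkb, the kinase of the chromosomal passenger complex, had 25.6, 17.9, 15.3 and 45.1 CPM, and Birc5 (survivin), its partner there, 21.2, 13.1, 18.02 and 45.7 CPM. Birc5 was the mitosis member with the smallest difference in the WT pair, 1.18-fold lower (95% counting interval 1.03 to 1.345). All 5 were highest in AOM/DSS labelled Card9-/- by more than 2-fold over AOM/DSS WT.

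Checkpoint genes and those that start anaphase included the mitosis member with the smallest fold in both the AOM/DSS pair and the pair labelled Card9-/-. Cdc20, which activates the anaphase-promoting complex, stood at 30.03, 27.1, 24.35 and 44.95 CPM, 1.85-fold higher (95% counting interval 1.67 to 2.04) in AOM/DSS labelled Card9-/- than in AOM/DSS WT and 1.66-fold higher (95% counting interval 1.505 to 1.83) than in the untreated library with the same label. Bub1 had 10.6, 5.89, 8.48 and 29.3 CPM, and its log2 ratio in the pair labelled Card9-/- was 2.14. Bub1b, a second kinase-like checkpoint protein, had 36.7, 27.6, 25.6 and 83.3 CPM. Ube2c, the ubiquitin-conjugating enzyme of the same complex, had 32.45, 25.5, 18.98 and 57.3 CPM.

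Of the spindle and kinetochore genes, Kif11, the motor that pushes the poles apart, stood at 40.8, 23.9, 27.6 and 76.55 CPM, and Kif20a, a motor of cytokinesis, at 32.6, 26.9, 22.9 and 70.55 CPM. Exons of Cdc23 on the other strand cover 34.6% of the Kif20a transcript. Cenpe, a kinetochore motor, had 34.6, 23.4, 25.1 and 62.97 CPM, and Cenpf, a large kinetochore protein, 58.04, 36.7, 34.5 and 80.1 CPM. Nusap1, which binds and bundles spindle microtubules, had 22.85, 12.5, 14.2 and 55.2 CPM and the highest log2 ratio of these 5 in the pair labelled Card9-/-, 2.06.

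Mki67 and Top2a were the mitosis members with the most counts. Mki67, the proliferation marker that coats mitotic chromosomes, stood at 304, 199, 179 and 375.5 CPM and was 2.09-fold higher (95% counting interval 2.02 to 2.17) in AOM/DSS labelled Card9-/- than in AOM/DSS WT. Top2a stood at 155, 84.8, 83.2 and 389.7 CPM, and its difference between the AOM/DSS libraries was the largest of any member, 4.69-fold higher (95% counting interval 4.46 to 4.925). In AOM/DSS WT it was 1.86-fold lower (95% counting interval 1.76 to 1.97) than in untreated WT, the lowest ratio of the mitosis members. Per kb of transcript, Top2a moved from 29.6 CPM in untreated WT, below Mcm6 at 34.9, Ube2c at 33.6, Mki67 at 30.2 and Pcna at 30.2, to 74.65 CPM in AOM/DSS labelled Card9-/-, above Ube2c at 59.25 and every other member.

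Treatment was compared first within WT, where the AOM/DSS library lay below the untreated library for 38 of the 40 members. A member was counted as past the size rule when one of the compared libraries held 50 counts or more and the ratio on the log2(CPM + 1) scale reached 2-fold, and all 40 had enough counts in every comparison. In the WT pair 4 members were lower by that rule, against 3.88% of the 15356 genes measured, and 0 were higher, against 4.08%. Scaled by the summed epithelial markers instead, 13 members were lower, against 7.31% of all genes, and 0 higher, against 2.84%. By TMM the 4 were Uhrf1 (log2 ratio -1.53), Mcm6 (-1.19), Pola1 (-1.18) and Mcm5 (-1.12), all of replication. The median log2 ratio was -0.64 for replication and -0.57 for mitosis members, and 0.02 for all genes. Replication members were spread more widely, with an SD of 0.44 among them against 0.18 for mitosis. Counting intervals lay below no difference for 37 members and above it for Rrm2.

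Within the label Card9-/-, the AOM/DSS library lay above the untreated one for all 40 members. Past the size rule, 34 were higher (16 of replication, 18 of mitosis), against 14.1% of 15900 genes, and 0 were lower, against 15.9%. Scaled by library totals alone, 20.6% of all genes were higher and 11.5% lower, so the background split turned with the scaling, and the members' count was then 36. The 6 below the rule were Cdt1, Gins2, Tyms, Mcm6, Cdc20 and Mki67. The median was 1.15 for replication and 1.39 for mitosis members, and 0.03 for all genes. Rrm2 led the replication members, and among those of mitosis Bub1 had the highest fold of CPM, 4.97-fold higher (95% counting interval 4.13 to 6.03), and Top2a, 4.597-fold higher (95% counting interval 4.38 to 4.83), the highest ratio on the log2(CPM + 1) scale.

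Without treatment, the library labelled Card9-/- lay below WT for 38 members, the exceptions being Gins2 and Tyms. No member was past the size rule, 0 higher against 4.46% and 0 lower against 3.37% of 15352 genes. The medians were -0.42 for replication and -0.58 for mitosis members, against -0.01 for all genes. Cdc20 had the smallest of the mitotic differences, 1.11-fold lower (95% counting interval 0.993 to 1.24), with an interval that spanned none.

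After AOM/DSS, the library labelled Card9-/- lay above WT for all 40, each by more than its counting error. Past the size rule were 38 (19 of each group), against 11.9% of 15779 genes, and 0 were lower, against 12.4%. By library totals alone, 16.8% of all genes were higher and 9.36% lower. Tyms and Cdc20 were the exceptions. The medians were 1.68 for replication and 1.48 for mitosis members, against 0.03 for all genes. Licensing and helicase genes had a median of 1.75, nucleotide synthesis genes 1.23, and the mitotic kinases with their partners 1.5.

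**Figure D2:**
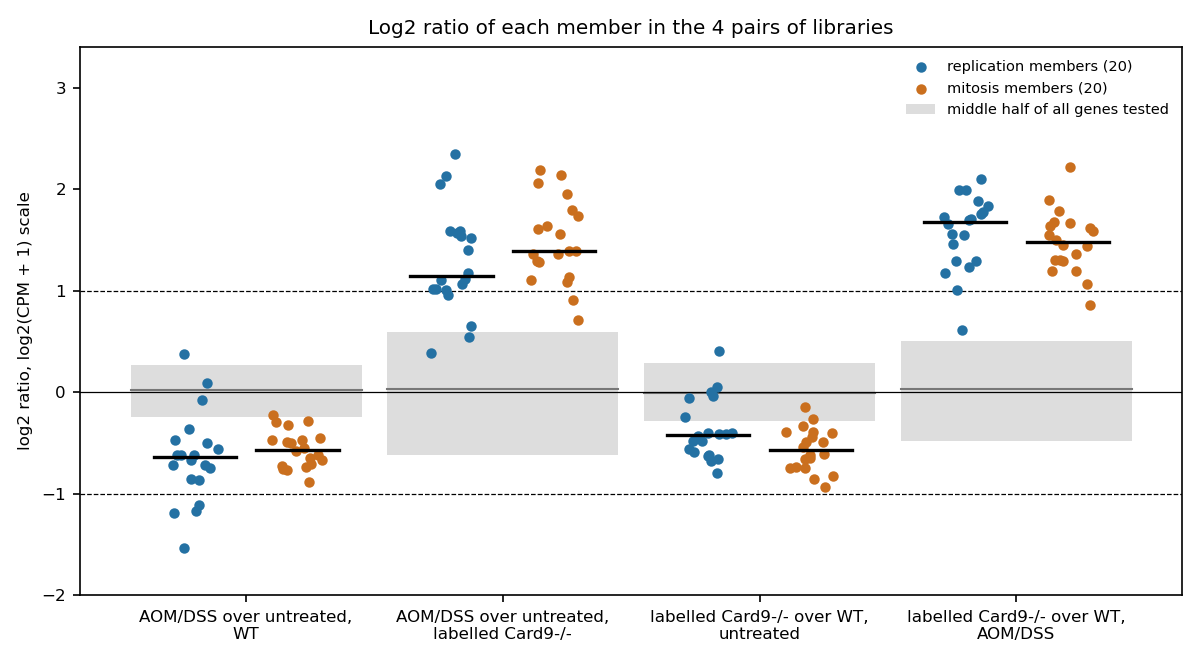
Log2 ratios of the 40 members in the 4 pairs of libraries, on the log2(CPM + 1) scale, with 1 point per member, a black bar at the median of each group, grey boxes from the lower to the upper quartile of all genes tested and dashed lines at the 2-fold rule. The WT and the untreated pair lie mostly below 0, and the pair labelled Card9-/- and the AOM/DSS pair lie wholly above it.

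The difference between the AOM/DSS ratios (label Card9-/- minus WT) was above 1 on the log2 scale for 39 members, against 14.2% of 16383 genes, and below -1 for 0, against 16.3%. Only Tyms, at 0.57, missed it. Its medians were 2.06 for replication and 1.98 for mitosis members, against -0.03 for all genes. Top2a had the largest difference, 3.07, followed among mitosis members by Ccnb1 at 2.71 and Nusap1 at 2.71, and among replication members Rrm1 led at 2.61, followed by Uhrf1 at 2.55 and Mcm5 at 2.52. A gene's ratio in WT said little of its ratio under the label: Pearson's r over the 40 genes was 0.283, 0.378 within replication and -0.045 within mitosis, as a description over genes that share libraries and scaling.

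**Figure D3:**
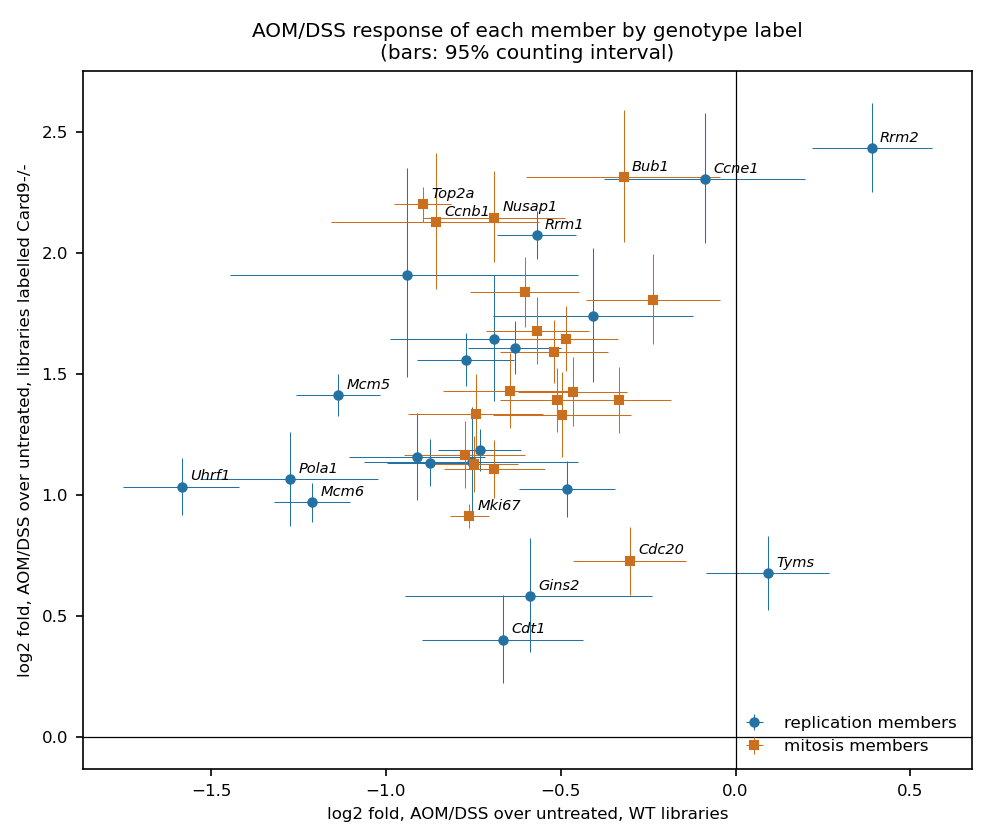
Log2 of the CPM fold of AOM/DSS over untreated in WT (horizontal) against that in the libraries labelled Card9-/- (vertical), 1 point per member with bars for the 95% counting intervals, coloured by group. All points lie above 0 on the vertical axis and 38 of 40 lie below 0 on the horizontal one, with Rrm2 and Tyms to the right.

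Replication was compared with mitosis within each library, a measure that needs no scaling between libraries. Of the summed counts of the 40 members, replication genes held 42.3% in untreated WT (exact 95% binomial interval 41.85 to 42.8), 46.0% in the untreated library labelled Card9-/- (45.4 to 46.6), 40.6% in AOM/DSS WT (39.9 to 41.2) and 44.2% in AOM/DSS labelled Card9-/- (43.9 to 44.5). The share was lowest in AOM/DSS WT and highest in the untreated library labelled Card9-/-, and no pair of intervals overlapped. With each gene's counts divided by its length the shares were 49.3%, 51.9%, 47.1% and 49.4%. Without Mcm6 and Mki67, the most abundant of each group over the 4 libraries together, they were 47.45%, 51.2%, 46.0% and 47.2%. These genes did not lead in every library. In AOM/DSS labelled Card9-/-, Rrm1 (5889 counts) exceeded Mcm6 (4750), and Top2a (12347) exceeded Mki67 (11897). The lowest and the highest library were the same by all 3 measures, while untreated WT and AOM/DSS labelled Card9-/- changed order without Mcm6 and Mki67. The medians of the groups differed by -0.08 (WT pair), -0.24 (pair labelled Card9-/-), 0.15 (untreated pair) and 0.20 (AOM/DSS pair) on the log2 scale, replication minus mitosis, so neither group was ahead in every comparison. Whether these shares differ between mice was not tested.

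The medians of other replication and mitosis genes lay on the same side as those of the members in each pair, and were smaller in the AOM/DSS pair. In the AOM/DSS pair 11.9% of all genes were past the rule as higher and 12.4% as lower. Of 40 further replication genes, 22 were past the rule as higher there and 0 as lower, with a median of 1.16, and -0.39 in the WT pair. Clspn, which relays fork stalling to Chek1, led them at 20.3, 14.1, 8.44 and 40.3 CPM, 4.78-fold higher in AOM/DSS labelled Card9-/- than in AOM/DSS WT. Chaf1a, which places histones on new DNA, had 30.2, 19.6, 18.3 and 61.4 CPM, Timeless, of the fork protection complex, 20.2, 15.8, 12.75 and 43.1 CPM, and Cdc45, the partner of GINS, 13.6, 8.055, 7.015 and 24.8 CPM. Of 50 further mitosis genes, 41 were higher and 0 lower, with a median of 1.41, and -0.46 in the WT pair. Among them Anln, a scaffold of the cleavage furrow, was 3.83-fold higher, Dlgap5, a spindle protein, 3.86-fold higher, and Ncapg, a condensin subunit, 3.74-fold higher. Pttg1 (securin), named after its value was seen, was the exception at -0.20 in the AOM/DSS pair and -0.67 in the pair labelled Card9-/-. Of 15 genes of the S phase checkpoint and replication stress, 11 were higher, with a median of 1.58. They included Exo1, a nuclease of resection (4.48-fold higher), Blm, a helicase (4.08-fold higher), and Fancd2, of the Fanconi pathway (3.899-fold higher).

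Regulators upstream were less uniform. Of 16 E2F, Rb and Myb factors, 6 were higher and 0 lower in the AOM/DSS pair, against 11.9% and 12.4% of all genes, with a median of 0.59. Mybl2 (B-Myb) led them at 11.9, 6.35, 4.72 and 29.2 CPM, 6.19-fold higher (95% counting interval 5.04 to 7.66), and E2f7, an E2F repressor, had 7.66, 4.42, 3.81 and 13.6 CPM. E2f1, an activating E2F, had 8.73, 10.6, 4.17 and 11.2 CPM and Myc 22.97, 27.6, 28.4 and 62.4 CPM. Of 7 G1 cyclins and kinases 2 were higher, against 11.9% of all genes, Cdk4 (2.345-fold higher) and Ccnd1 (2.198-fold higher), both of which drive G1, while Cdk6 and Cdk2, their kin, had log2 ratios of 0.87 and 0.53. Of 7 Cdk inhibitors 1 was higher and 1 lower, which is near the 11.9% and 12.4% of all genes. Cdkn2a, the locus of p16 and Arf, had 1, 0, 2 and 312 counts, and Cdkn2b (p15) stood at 43.2, 61.45, 28.98 and 7.355 CPM. Cdkn1a (p21) read 144, 227, 121 and 82.5 CPM and Cdkn1b (p27) 56.9, 62, 49.5 and 35.3 CPM, both lowest in AOM/DSS labelled Card9-/-. Cdkn1c (p57) was highest there at 10.5, 6.81, 13.1 and 16.5 CPM, while Cdkn2c (p18), at 15.1, 11.3, 10.4 and 11.3 CPM, and Cdkn2d (p19), at 8.49, 11.05, 9.03 and 10.1 CPM, were neither highest nor lowest there, so the inhibitors had no common direction. Of 10 housekeeping references 0 were past the rule in either direction in the AOM/DSS pair, with a median of 0.17. Their log2 ratios there ran from -0.98 (Sdha) to 0.62 (Polr2a). In the pair labelled Card9-/- 1 of the 10, Sdha, was lower (-1.08), against 15.9% of all genes. There 0 were higher, against 14.1%.

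Cell type markers had no common direction. In the AOM/DSS pair 11.9% of all genes were past the rule as higher and 12.4% as lower, and in the WT pair 3.88% as lower. The 10 markers of crypt stem and early progenitor cells summed to 425, 401, 311 and 1227 CPM, the same order at the extremes as the members, with 8 of 10 past the rule as higher in the AOM/DSS pair and 4 of 10 lower in the WT pair. Lgr5, the crypt stem cell receptor, stood at 9.799, 9.16, 1.74 and 101 CPM and Rnf43, a Wnt feedback gene, at 43.8, 49.25, 32.2 and 269 CPM. Markers of differentiated cells ran opposite in the AOM/DSS pair: the 8 colonocyte markers summed to 10510, 5998, 8515 and 653 CPM (8 of 8 lower in the AOM/DSS pair), the 7 goblet cell markers to 17050, 15840, 14350 and 1838 CPM (6 of 7 lower) and the 7 smooth muscle markers to 7848, 8443, 6235 and 1200 CPM (7 of 7 lower). The 10 general epithelial markers summed to 11300, 12940, 13820 and 9522 CPM. In the AOM/DSS pair 3 of the 10 were past the rule as lower and 1, Krt18, as higher, with a median log2 ratio of -0.60. The lowest ratio of the 10 was that of the colon factor Cdx2, which read 258, 143, 279 and 16.9 CPM. Cdx2, a marker of the labelled tissue picked with its value in view, was thus lowest in the last library. The crypt genes Lgr5 and Rnf43 were highest there. Of cells that can divide outside the epithelium, the 7 germinal centre B cell markers summed to 32.5, 42.1, 38.8 and 51.5 CPM. Of the 3 of these with enough counts in the AOM/DSS pair, S1pr2 was past the rule as higher (7.78, 9.57, 5.502 and 15.5 CPM), Bcl6 had a log2 ratio of 0.35 and Fas one of -0.20, while Rgs13 had 0 counts in AOM/DSS labelled Card9-/-. The 7 T cell markers summed to 29.9, 39.45, 47.7 and 62.9 CPM. The 6 macrophage markers summed to 281, 265, 183 and 641 CPM (6 of 6 higher in the AOM/DSS pair). Like the crypt stem list, they had the libraries in the same order as the members' sums. The 6 neutrophil markers summed to 15.99, 62.1, 380.3 and 273 CPM. Fibroblast (6), endothelial (5), B and plasma cell (8) and adipocyte markers (5) summed to 1888, 1757, 1083 and 1075 CPM, 176, 160.2, 165 and 146 CPM, 341, 589, 397 and 177 CPM and 221.5, 20.8, 77.7 and 9.88 CPM. The part of cell composition in the members' levels was not tested.

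**Figure D4:**
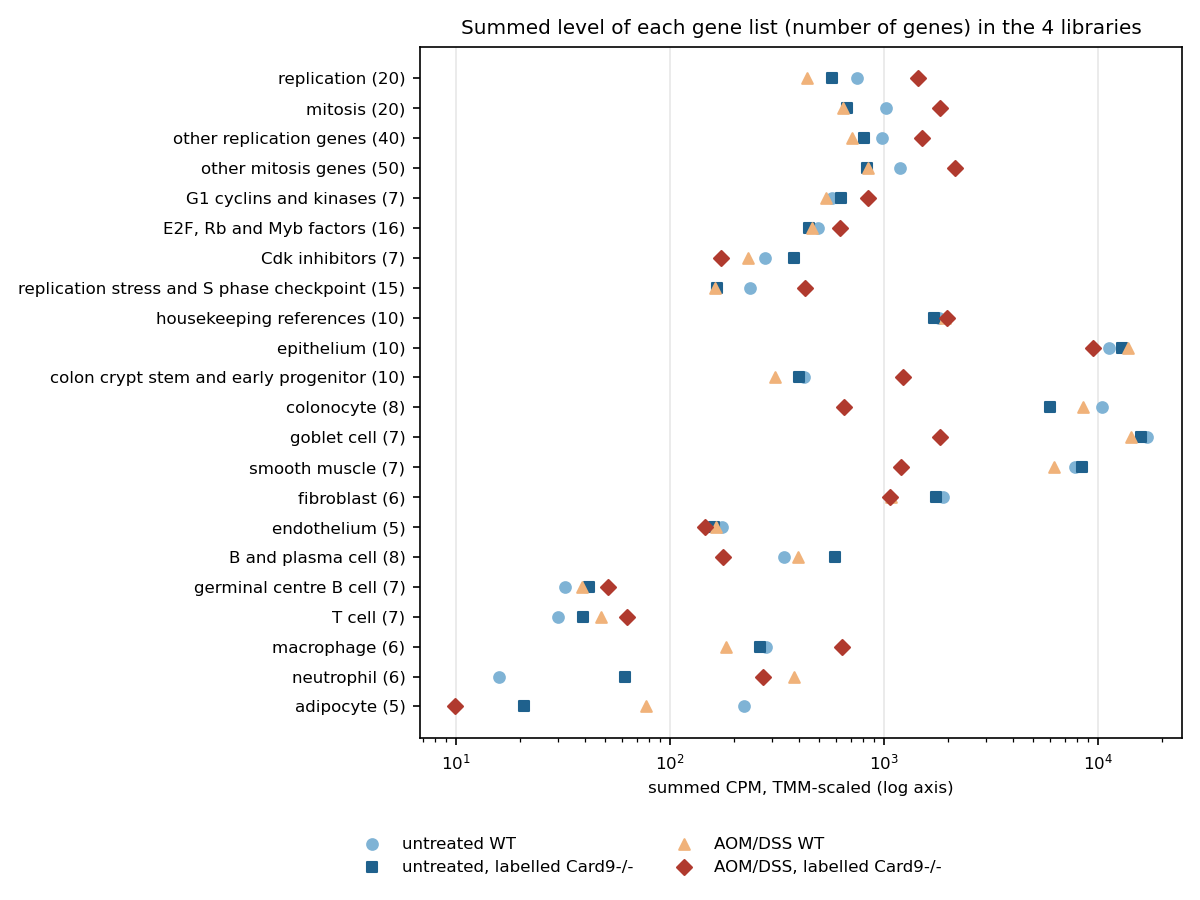
Summed TMM-scaled CPM of each gene list in the 4 libraries, on a logarithmic axis, 1 point per list and library, with the number of genes of each list in brackets. The member lists have the AOM/DSS library labelled Card9-/- at the right. So do the crypt stem, macrophage, T cell and germinal centre B cell lists, the housekeeping references and all pathway lists except the Cdk inhibitors. The Cdk inhibitor, epithelium, colonocyte, goblet cell, smooth muscle, fibroblast, endothelium, B and plasma cell and adipocyte lists have it at the left.

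Across all genes an additive model of label and treatment was fitted over the 4 libraries. With edgeR's quasi-likelihood test, 0 of 18973 genes had a Benjamini-Hochberg adjusted p under 0.05 for treatment (1148 at an unadjusted p under 0.05) and 0 for the label (746). None of the 40 members had an unadjusted p under 0.05 for either term of this model. In an edgeR fit of treatment alone, 1 member did, at an unadjusted p of 0.0469 and a smallest adjusted p among the members of 0.779, and in one of the label alone 0 did. In the additive edgeR fit named first, the smallest value for treatment among the members was that of Rrm2 (unadjusted p = 0.0712, adjusted p = 0.855). For the label it was that of Gins2 (unadjusted p = 0.113, adjusted p = 1). Without a filter on low counts, 1 member had an unadjusted p under 0.05 for treatment in the additive edgeR fit. DESeq2 called 337 genes for treatment and 260 for the label, 0 of them members, and 1 member had an unadjusted p under 0.05 there, for treatment (0.0239). The opposite signs of the members in the WT pair and the pair labelled Card9-/- fall into the residual of this model, which has 1 degree of freedom.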

How the data were processed

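RNA of mouse colon was measured in 4 libraries, 1 per group. The authors deposited raw counts per gene symbol, as whole numbers without normalization, on GRCm38 (mm10) per the submitters' processing notes. Not given in the sources used here are the aligner, the counter, its annotation and its use of strand. In 27 rows a date replaced the symbol. CPM were computed from these counts on TMM-scaled library sizes, using edgeR 4.0.16 in R 4.3.3. Log2 ratios were taken on log2(CPM + 1), which understates differences of low genes. A gene passed the size rule at 50 counts or more in the higher library and a difference of at least 2-fold. Intervals are exact 95% Clopper-Pearson limits, conditional on the sum of both counts. They cover counting error only, as reads lacking molecular identifiers need not be separate molecules. No p-value was computed for a pair of libraries.

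The additive model (filterByExpr, robust edgeR quasi-likelihood fit, Benjamini-Hochberg adjustment, threshold 0.05) takes the interaction as its only measure of spread, so its p-values hold only if label and treatment act additively. Alternatives were DESeq2 size factors and its Wald test (DESeq2 1.42.0), upper-quartile factors, library totals, a scale set by the epithelial markers, a pseudocount of 0.5 or 5 CPM, a minimum of 200 counts or none, thinning to the smallest library, and removal of genes that took over 1% of any library. Transcript lengths, overlapping exons and pseudogenes came from GENCODE on GRCm38.

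All 40 members are named. Intervals are printed for the highest and lowest fold of each group in each pair and for Mki67, Pcna, Mcm2 and Cdk1, and for a few others chosen after their values were seen. Of each pathway list, up to 4 genes with the largest absolute ratio in the AOM/DSS pair are named, apart from some that are not reported here, and of marker lists the sums with a few examples, of which Lgr5 and Cdx2 were picked with their values in view. The members and lists were chosen with earlier results of these data known.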

Additional observations from a re-analysis of the deposited data

Results flagged for a closer look

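The direction of the AOM/DSS difference was opposite under the labels: 38 of the 40 members were lower in AOM/DSS WT than in untreated WT and higher in AOM/DSS labelled Card9-/- than in the untreated library with that label. The difference between the responses had a median of 2.06 on the log2 scale over the replication members and 1.98 over the mitosis members. It was not tested, because each group has 1 library. The library labelled Card9-/- with AOM/DSS also stood apart over all genes, and its part in this result was not tested.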

How the results depend on the processing

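No alternative reversed a direction that had passed the size rule. Over all alternatives that kept the 40 members, 28 to 38 were higher in the pair labelled Card9-/-, 35 to 40 in the AOM/DSS pair, and 36 to 40 differed in their AOM/DSS responses. In the WT pair 3 to 13 were lower, with 13 under the scale set by the epithelial markers (7.31% of all genes). In the untreated pair 1 member was lower under library totals and 3 under the epithelial scale, against 0 by TMM. The epithelial scale moved the median of all genes to -0.26 in the WT pair, 0.43 in the pair labelled Card9-/-, -0.19 in the untreated pair and 0.53 in the AOM/DSS pair, and library totals moved it to 0.30 and 0.28 in the pair labelled Card9-/- and the AOM/DSS pair. Relative to all genes, the members' medians under the epithelial scale were -0.63, 1.37, -0.48 and 1.55. With TMM factors computed without the AOM/DSS library labelled Card9-/-, 4 members were lower in the WT pair and 0 in the untreated pair. Without the 11 members that share 10% or more of their transcript with a near-identical pseudogene or with exons of another gene, a choice made after seeing the data, 3 of 29 were lower in the WT pair, 24 higher in the pair labelled Card9-/-, 27 in the AOM/DSS pair, and 28 differed in their responses.

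The additive model called 81 genes for treatment and 62 for the label without a filter on low counts, 23 and 15 with library totals, and 337 and 260 with DESeq2, none of them members. The cause was not tested. The replication shares were 49.3%, 51.9%, 47.1% and 49.4% per kb and 47.45%, 51.2%, 46.0% and 47.2% without Mcm6 and Mki67. No paired analysis was possible because each group has 1 library and the labels carry no replicate numbers. For the same reason no library could be left out of the additive model, which has 1 residual degree of freedom. Every member had 51 counts or more in every library, so depth limits single members little, while the missing replicates limit every comparison.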

Other observations

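Several pairs of partner genes differed in their ratio between the libraries by more than counting error. These pairs were chosen after their values were seen, and a ratio of counts within a library needs no scaling. Top2a over Mki67 was 0.509 in untreated WT, 0.425 in the untreated library labelled Card9-/-, 0.464 in AOM/DSS WT and 1.04 in AOM/DSS labelled Card9-/- (95% counting interval 1.01 to 1.06), so the last library alone held more Top2a than Mki67 counts. Rrm2 over Rrm1, the subunits of ribonucleotide reductase, was 0.308, 0.290, 0.599 and 0.372 in the same order, highest in AOM/DSS WT (0.541 to 0.664). Ccnb1 over Ccnb2 was 0.325, 0.223, 0.226 and 0.371, and Bub1 over Bub1b 0.288, 0.213, 0.331 and 0.352. Ccne1 over Ccne2 was 2.00, 2.42, 3.61 and 3.18. Aurka over Aurkb stayed between 0.861 and 1.02, with intervals that overlapped in all 4 libraries. A ratio shows unequal change of the partners and not which of them changed.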
